A study of Homo sapiens with 33 samples.

Results

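Genes of the epithelial-mesenchymal transition (EMT), 10 in number, were followed across platinum-sensitive and platinum-resistant ovarian carcinoma cell lines: the transcription factors ZEB1, ZEB2, SNAI1, SNAI2, TWIST1 and TWIST2, and the mesenchymal markers VIM, CDH2, CDH11 and FN1. They were chosen by symbol, and all 10 were found among the 29744 genes of the table. EMT is the programme by which epithelial cells loosen their junctions and take on the shape and motility of mesenchymal cells. The ZEB, SNAI and TWIST factors start it, largely by repressing E-cadherin (CDH1) and other junction genes through a short DNA motif called the E-box, while vimentin (VIM), N-cadherin (CDH2), cadherin-11 (CDH11) and fibronectin (FN1) are among the genes that rise as it proceeds. Ovarian carcinomas are known for mixed states, in which epithelial and mesenchymal genes are expressed side by side.

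The 33 mRNA sequencing libraries, 3 for each of 11 human high-grade serous ovarian carcinoma lines, address how expression differs between sensitive and resistant lines of the same origin. OVCAR3 and OVCAR4 are established sensitive lines, and OVCAR3 ResA, OVCAR3 ResB, OVCAR4 ResA and OVCAR4 ResB are independent resistant derivatives obtained by repeated pulses of cisplatin. PEA1 is a sensitive line with the resistant line PEA2 from the same patient, and PEO1 is a sensitive line with the resistant lines PEO4 and PEO6 from the same patient. The titles name the line and not its role, so the roles of the 4 sensitive and 7 resistant lines come from the study's text. The sources used here state no drug treatment at harvest, and per the study's methods the OVCAR3 and OVCAR4 derivatives were not kept in cisplatin. Each line is 1 cell population, replicate libraries are not said to come from separate cultures, and p-values between lines therefore measure the spread between these libraries.

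The libraries held 18058985 to 43394009 estimated counts (median 30611448). In 31 of 33 libraries the most similar library came from the same line. Mitochondrial ribosomal RNA took 1.12% to 14.8% of the counts. PAX8, a transcription factor of the Müllerian lineage, averaged 30.1 to 203 TPM (transcripts scaled to a common library total) in the 11 lines. Of 10 serous carcinoma markers, 8 averaged at least 1 TPM in PEA1, with a summed level of 407 to 450 TPM per library against 2481 to 8259 TPM in the other lines, and SOX17 had no count in PEO1 and PEO4. Replicate 1 of OVCAR4 ResA stood apart from its replicates in genes of several lists: THY1 was at 9.96 TPM against 0.80 and 0.669 TPM, FAP at 0.631 TPM against 0 and 0.0228 TPM, TGFBI at 3.62 TPM against 0.0233 and 0.0453 TPM, and the serous markers WT1 at 5.91 TPM against 0.416 and 0.576 TPM and MSLN at 8.09 TPM against 0.548 and 0.446 TPM. Results that rest on it are given with and without it.

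Levels below are in TPM, which corrects for gene length, and are listed in the order of replicates 1, 2 and 3. Changes are log2 fold changes of the counts, resistant over sensitive line, with their standard error (SE), from DESeq2 with the replicate number as a block, and a gene was called at a Benjamini-Hochberg adjusted p-value under 0.05 over all genes. Positions are those of GRCh38.p14 (RefSeq). ZEB2 is at chr2:144384081-144520119, FN1 at chr2:215360865-215436068, TWIST2 at chr2:238848085-238910534 and TWIST1 at chr7:19113047-19117636. SNAI2 is at chr8:48917598-48921429, VIM at chr10:17228241-17237593 and ZEB1 at chr10:31318417-31529804. CDH11 is at chr16:64943753-65123744, CDH2 at chr18:27932879-28177130 and SNAI1 at chr20:49982980-49988886. All are protein-coding, and values are sums over the transcripts of each gene.

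**Figure D1:**
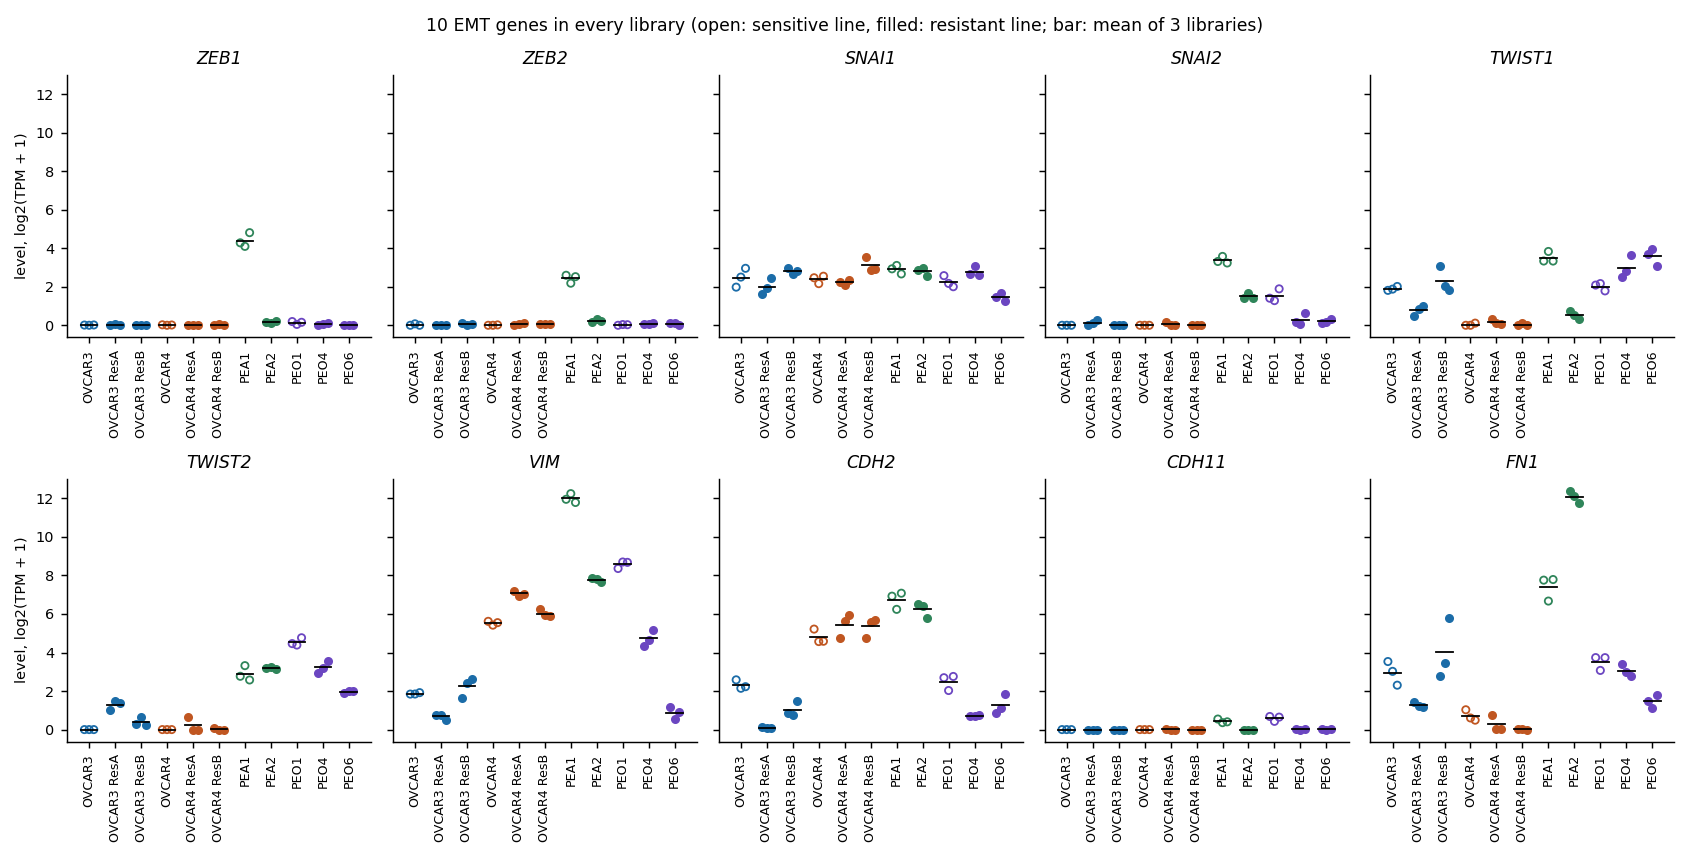
Level of each of the 10 EMT genes, as log2(TPM + 1), in every library of the 11 lines (points, 3 per line; open for sensitive and filled for resistant lines, coloured by family), with the mean as a bar. ZEB1 and ZEB2 are high in PEA1 alone, SNAI1 is at a similar level in all lines, and VIM and FN1 span most of the axis.

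ZEB1 and ZEB2, zinc-finger homeobox repressors of CDH1, were expressed above 1 TPM in 1 of the 11 lines, PEA1. ZEB1 was at 18.4, 16.1 and 27.0 TPM in PEA1, and in PEA2, next in order, at 0.116, 0.102 and 0.182 TPM. In the other 9 lines no library exceeded 0.144 TPM, and in 6 lines no library had more than 3 counts. The order of lines below PEA1 therefore does not separate: all 9 neighbouring pairs overlapped. ZEB2 followed the same order at the top, with 5.04, 3.55 and 4.75 TPM in PEA1 and 0.133, 0.268 and 0.149 TPM in PEA2, and no library of another line exceeded 0.0740 TPM. PEA1 lay above PEA2, and PEA2 above all others, without overlap.

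In PEA2 against PEA1, ZEB1 was lower by a log2 change of -7.13 ± 0.33 (SE; adjusted p = 2.07e-101) and ZEB2 by -4.89 ± 0.38 (adjusted p = 1.06e-36). Both calls remained in every alternative analysis run. Neither gene was called in any other pair. ZEB1 had an adjusted p in 4 of the 7 pairs and ZEB2 in 6, and outside the PEA pair their counts per library were 0 to 13. On summed counts, ZEB1 was 3.57-fold lower in PEO6 than in PEO1 (8 against 27 counts, exact 95% interval 1.58 to 9.08), and ZEB2 was 6.53-fold higher in OVCAR4 ResA (15 against 2 counts, 1.52 to 58.8) and 6.96-fold higher in OVCAR4 ResB (16 against 2 counts, 1.64 to 62.4). In OVCAR3 ResA the intervals of the ratio to OVCAR3 included 1 for ZEB1 (0.751 to 36.4) and ZEB2 (0.0673 to 1.77). These intervals cover counting error and not the spread between libraries. With DESeq2 the adjusted p was 0.286 for ZEB1 in PEO6 and 0.357 for ZEB2 in OVCAR4 ResB, and ZEB2 had none in OVCAR4 ResA.

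SNAI1 (Snail), a zinc-finger repressor, was the most evenly expressed of the 10 genes. It averaged at least 1 TPM in all 11 lines, from 1.83 ± 0.41 TPM (SD, n = 3) in PEO6 to 7.85 ± 2.51 TPM in OVCAR4 ResB, a 4.28-fold span, and all 10 neighbours in the order of lines overlapped. In OVCAR3 it was at 2.95, 4.66 and 6.77 TPM and in OVCAR3 ResA at 2.09, 2.85 and 4.42 TPM. The ranges overlapped, and each ResA library lay below the OVCAR3 library of its number. The log2 change was -0.75 ± 0.28 (adjusted p = 0.0182) and was lost without the replicate block (adjusted p = 0.222). In PEO6 the values were 1.81, 2.25 and 1.44 TPM, below the 4.96, 3.51 and 3 TPM of PEO1 in every library (log2 change -1.07 ± 0.42, adjusted p = 0.0294). Both calls were lost when any 1 replicate was left out, with adjusted p between 0.143 and 0.290. SNAI1 was not called in the other 5 pairs.

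SNAI2 (Slug), the paralogue of SNAI1, was restricted to a few lines. It averaged 9.42 ± 1.32 TPM in PEA1, 1.93 ± 0.69 in PEO1 and 1.86 ± 0.34 in PEA2, and had no count in any library of OVCAR3, OVCAR3 ResB and OVCAR4. In PEA1 the libraries were at 8.93, 10.9 and 8.41 TPM and in PEA2 at 1.70, 2.24 and 1.63 TPM, without overlap (log2 change -2.23 ± 0.32, adjusted p = 2.47e-11). In PEO1 they were at 1.65, 1.43 and 2.71 TPM, against 0.111, 0.0535 and 0.545 TPM in PEO4 and 0.0744, 0.107 and 0.271 TPM in PEO6. Both resistant lines lay below PEO1 in every library, and their own ranges overlapped. The log2 change was -3.37 ± 0.66 in PEO4 (adjusted p = 3.19e-06) and -3.81 ± 0.67 in PEO6 (adjusted p = 1.56e-07).

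TWIST1 and TWIST2, basic helix-loop-helix paralogues, moved in opposite directions in 3 of the 7 pairs. TWIST1 was at 3.25, 3.49 and 2.45 TPM in PEO1, at 4.74, 5.96 and 11.4 TPM in PEO4 and at 11.9, 14.5 and 7.51 TPM in PEO6. Every library of the resistant lines lay above every library of PEO1, while PEO4 and PEO6 overlapped. TWIST1 rose by a log2 change of 1.19 ± 0.38 in PEO4 (adjusted p = 0.00753) and 1.81 ± 0.32 in PEO6 (adjusted p = 1.48e-07). The PEO4 call rested on replicate 3, without which the log2 change was 0.57 (adjusted p = 0.302). TWIST2 was at 21, 19.9 and 26.2 TPM in PEO1, at 6.67, 8.28 and 10.9 TPM in PEO4 and at 2.67, 3.05 and 2.96 TPM in PEO6. The 3 lines did not overlap. TWIST2 fell by 1.35 ± 0.24 on the log2 scale in PEO4 (adjusted p = 2.41e-07) and by 2.96 ± 0.30 in PEO6 (adjusted p = 9.42e-22).

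In OVCAR3 the directions were the other way round. TWIST1 was at 2.51, 2.67 and 3.04 TPM in OVCAR3 and at 0.384, 0.800 and 1.02 TPM in OVCAR3 ResA, without overlap (log2 change -2.15 ± 0.44, adjusted p = 7.31e-06). TWIST2 had no count in the 3 OVCAR3 libraries and 21, 41 and 35 counts (0.993, 1.81 and 1.56 TPM) in OVCAR3 ResA. Against a floor of 3 counts per library it was at least 9.03-fold higher (adjusted p = 1.22e-06). In OVCAR3 ResB, TWIST2 had 3, 10 and 4 counts and was not called (adjusted p = 0.229), and TWIST1, at 7.43, 3.12 and 2.54 TPM, overlapped OVCAR3 (log2 change 0.42 ± 0.56, adjusted p = 0.844).

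In the PEA pair TWIST1 fell and TWIST2 was not called. TWIST1 was at 9.10, 13.2 and 9.08 TPM in PEA1 and at 0.699, 0.435 and 0.246 TPM in PEA2 (log2 change -4.45 ± 0.44, adjusted p = 1.43e-22). TWIST2 was at 5.80, 8.98 and 4.96 TPM in PEA1 and at 8.27, 8.67 and 7.81 TPM in PEA2, with overlapping ranges (log2 change 0.50 ± 0.36, adjusted p = 0.266). In the OVCAR4 lines TWIST1 had at most 7 counts and TWIST2 at most 12 counts in a library, the highest of each in replicate 1 of OVCAR4 ResA, and neither had an adjusted p.

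VIM, the intermediate filament protein of mesenchymal cells, spanned a 6728-fold range of mean levels and separated the lines best: 8 of its 10 neighbours in the order of lines did not overlap. PEA1 was highest, at 3964, 4861 and 3536 TPM, where VIM ranked 17 among all genes by mean TPM. PEO1 followed at 328, 415 and 409 TPM and PEA2 at 231, 223 and 205 TPM. OVCAR4 and its derivatives held intermediate levels and OVCAR3 and its derivatives low ones, with OVCAR3 ResA lowest at 0.702, 0.720 and 0.415 TPM. The lowest lines, PEO6 and OVCAR3 ResA, overlapped, as did OVCAR3 ResB and OVCAR3.

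VIM was called lower in 4 pairs and higher in 1. In the PEO family it was at 19.5, 24.4 and 35.0 TPM in PEO4 and at 1.22, 0.449 and 0.858 TPM in PEO6, so that PEO1, PEO4 and PEO6 formed descending, non-overlapping groups. The log2 change against PEO1 was -3.87 ± 0.21 in PEO4 (adjusted p = 8.66e-77) and -8.89 ± 0.34 in PEO6 (adjusted p = 1.01e-148). In PEA2 it was -4.10 ± 0.24 (adjusted p = 3.98e-62). In OVCAR3, at 2.59, 2.60 and 2.78 TPM, VIM lay above OVCAR3 ResA in every library (log2 change -2.26 ± 0.40, adjusted p = 9.95e-08). These 4 calls remained in every alternative analysis run. In OVCAR3 ResB, at 2.16, 4.38 and 5.19 TPM, VIM was not called (log2 change 0.36 ± 0.47, adjusted p = 0.839).

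OVCAR4 ResA was the line in which VIM rose. VIM was at 48.1, 41.8 and 45.9 TPM in OVCAR4 and at 147, 122 and 132 TPM in OVCAR4 ResA, without overlap (log2 change of counts 1.03 ± 0.32, adjusted p = 0.0198). On the log2(TPM + 1) scale the change was 1.54, of which 0.44 was the median shift of all genes in that comparison, leaving 1.10, and it was not called with limma (adjusted p = 0.0880). The call was lost with edgeR (adjusted p = 0.128) and without replicate 2 (0.271) or replicate 3 (0.413). Without replicate 1, the library that stood apart, the log2 change was 0.77 (adjusted p = 2.44e-04). Mitochondrial ribosomal RNA took 5.18%, 14.8% and 12% of the counts in OVCAR4 and 9.23%, 2.02% and 2.09% in OVCAR4 ResA, and its part in the result was not tested. In OVCAR4 ResB VIM was at 74.3, 60.9 and 57.7 TPM, above OVCAR4 in every library in TPM but not called (log2 change of counts -0.07 ± 0.36, adjusted p = 0.930), and without replicate 1 it was called lower (-0.41, adjusted p = 0.0457). There the median shift on the log2(TPM + 1) scale was 0.48 against a VIM change of 0.49. The shift was 0.14 and 0.12 in OVCAR3 ResA and ResB and -0.10 in PEA2.

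CDH2 (N-cadherin), the adhesion receptor that replaces E-cadherin as EMT proceeds, was lower in 4 pairs and higher in none. It was highest in PEA1 (121, 74.6 and 134 TPM) and PEA2 (89.9, 83.5 and 54.5 TPM), which overlapped, so that the 17.1-fold fall of VIM in PEA2 went with no called change of CDH2 (log2 change -0.39 ± 0.25, adjusted p = 0.211). In OVCAR3 CDH2 was at 4.99, 3.42 and 3.68 TPM, in OVCAR3 ResA at 0.0783, 0.0596 and 0.0439 TPM and in OVCAR3 ResB at 0.800, 0.662 and 1.77 TPM. The 3 lines did not overlap. The log2 change was -6.20 ± 0.49 in ResA (adjusted p = 2.22e-35) and -2.10 ± 0.44 in ResB (adjusted p = 6.98e-05), the second of which was lost without replicate 1 (0.0746) or replicate 2 (0.0582). In PEO1 CDH2 was at 5.46, 3.08 and 5.76 TPM, against 0.619, 0.633 and 0.664 TPM in PEO4 and 0.827, 1.17 and 2.61 TPM in PEO6. Both lay below PEO1 in every library (log2 changes -2.81 ± 0.30 and -1.76 ± 0.35, adjusted p = 5.18e-19 and 2.82e-06). In the OVCAR4 lines, CDH2 averaged 27.3 to 45.1 TPM and was called in neither pair, except higher in OVCAR4 ResA without replicate 1 (log2 change 0.51, adjusted p = 0.0303).

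Set against CDH1 in the same libraries, CDH2 exceeded E-cadherin in PEA1 alone. The difference in log2(TPM + 1), CDH2 minus CDH1, was 5.67 ± 0.26 (SD, n = 3) in PEA1 and between -6.06 in OVCAR3 ResA and -0.55 in OVCAR4 in the other 10 lines. OVCAR4 thus carried near-equal levels of both cadherins, and in PEA2 the difference was -1.43 ± 0.21.

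CDH11 (cadherin-11) was the least expressed of the 10 genes, with a mean under 1 TPM in every line and no count in 6 lines. It had 33, 19 and 16 counts in PEA1 and none in PEA2, at least 7.41-fold lower against a floor of 3 counts per library (adjusted p = 5.31e-05). In PEO1 it had 30, 28 and 30 counts. Summed over libraries, PEO4 had 3 counts against 88 in PEO1, a 27.2-fold lower share of counts (exact 95% interval 9.01 to 134), and PEO6 had 2, a 46.5-fold lower share (12.5 to 390). These intervals and floors cover counting error only. Both were called (adjusted p = 1.59e-04 and 9.62e-05).

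FN1 (fibronectin), a matrix glycoprotein bound by integrins, went against the other markers in the PEA pair. It was at 215, 101 and 220 TPM in PEA1 and at 5387, 4398 and 3488 TPM in PEA2, where it ranked 23 among all genes and took on average 1.90% of the counts. The log2 change was 4.84 ± 0.25 (adjusted p = 1.20e-81), a 28.7-fold rise that remained in every alternative analysis run. It was the 1 member of the 10 called higher in PEA2. In the other 6 pairs FN1 was called lower in 5 and higher in none. In OVCAR3 it was at 10.6, 7.12 and 3.94 TPM and in OVCAR3 ResA at 1.69, 1.35 and 1.24 TPM, without overlap (log2 change -2.42 ± 0.19, adjusted p = 5.94e-37).

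In the PEO family FN1 was at 12.3, 7.40 and 12.3 TPM in PEO1, at 9.46, 7 and 5.88 TPM in PEO4 and at 1.85, 1.14 and 2.53 TPM in PEO6. PEO6 lay below both others (log2 change against PEO1 -2.60 ± 0.24, adjusted p = 1.31e-24), while PEO4 overlapped PEO1. The small PEO4 change (-0.47 ± 0.19, adjusted p = 0.0432) was lost without any 1 replicate, with adjusted p between 0.103 and 0.285, and without the replicate block (adjusted p = 0.0601). In OVCAR4, FN1 was low throughout, with 165, 58 and 53 counts. OVCAR4 ResB had 1, 3 and 0 counts, a 79.3-fold lower share of the summed counts (exact 95% interval 30.6 to 293; adjusted p = 1.86e-09). OVCAR4 ResA had 95, 3 and 3 counts, the 95 in the library that stood apart. Its log2 change was -3.51 ± 0.87 (adjusted p = 0.00142), -5.02 without replicate 1 (adjusted p = 4.78e-07) and not called without the block (adjusted p = 0.306), with edgeR (0.176) or without replicate 2 (0.241) or 3 (0.252).

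FN1 in OVCAR3 ResB depended on 1 library. The values were 5.86, 9.93 and 54.1 TPM, and the third library lay far above every OVCAR3 library. The log2 change was 0.96 ± 0.54 (adjusted p = 0.400) with it and -0.09 (adjusted p = 0.922) without replicate 3, and without replicate 1 FN1 was called higher (log2 change 1.95, adjusted p = 0.0297). Mitochondrial ribosomal RNA was 5.97%, 8.88% and 1.12% of the counts in these libraries, and PECAM1 was at 3.83, 2.84 and 13.6 TPM. Their part in the FN1 value was not tested.

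**Figure D2:**
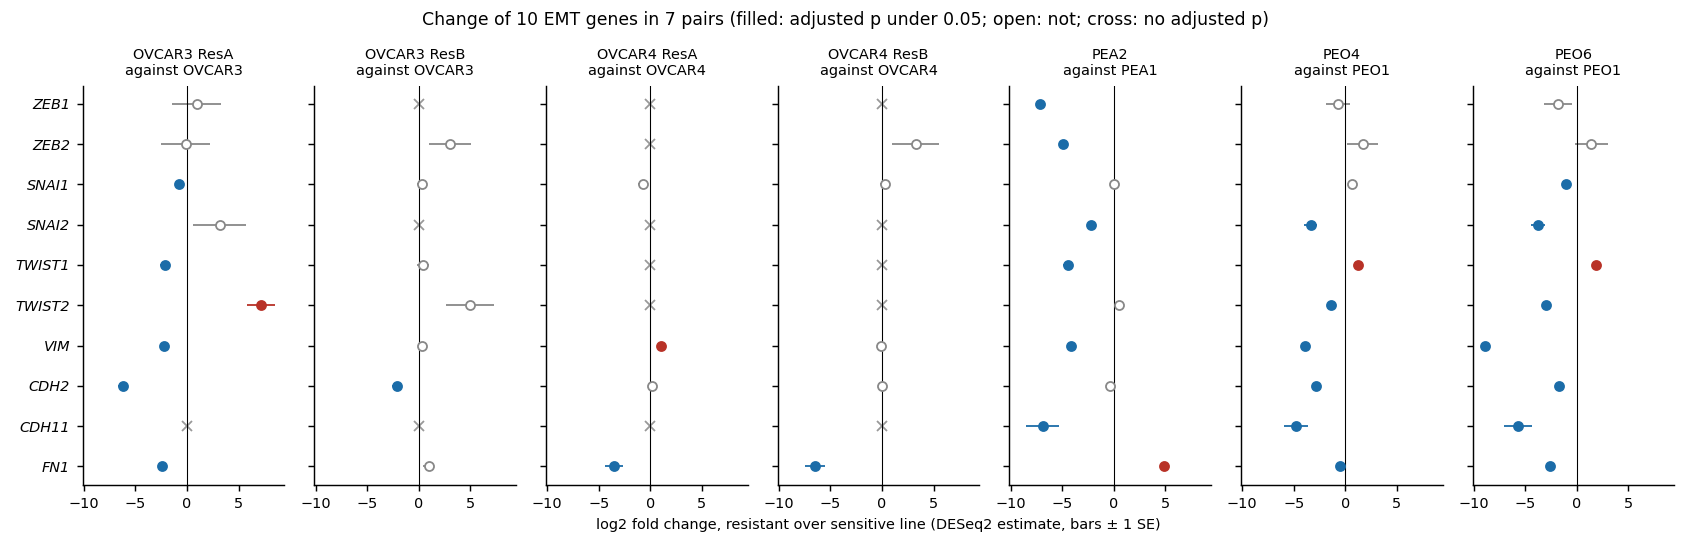
Log2 fold change of each of the 10 EMT genes in the 7 pairs (points, DESeq2 estimate on 3 libraries per line; bars, 1 SE; filled red or blue, called higher or lower; open, not called; cross, no adjusted p). The PEA and PEO columns hold 19 of the 27 calls of a lower level, and the 5 calls of a higher level fall on TWIST2, VIM, FN1 and, in PEO4 and PEO6, TWIST1.

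Counted over the 7 pairs, 55 of the 70 gene-by-pair combinations had an adjusted p, and 32 were called, 5 higher and 27 lower. The counts have to be read against those of all genes. In OVCAR3 ResA 1 of the 10 genes was higher and 5 were lower, where 22% of all tested genes were higher and 22.9% lower. In OVCAR3 ResB none was higher and 1 was lower, against 3.84% and 3.29% of all genes. In OVCAR4 ResA 1 was higher and 1 lower, against 6.21% and 4.85%, and in OVCAR4 ResB none was higher and 1 was lower, against 8.8% and 8.5%. In these last 3 pairs 4 to 7 of the 10 genes had an adjusted p. The balance of all calls was within 2 percentage points under TMM size factors. With limma on log2(TPM + 1) and a filter of 1 TPM, which changes the scale, the test and the filter together, the share of higher calls went from 49.0% to 63.7% in OVCAR3 ResA, from 56.2% to 69.1% in OVCAR4 ResA and from 50.8% to 66.7% in OVCAR4 ResB, and from 49.5% to 43.7% in PEA2.

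In PEA2 1 gene was higher and 6 were lower, where 22% of all genes were higher and 22.5% lower. In PEO4 1 was higher and 6 lower, against 16.6% and 16.7%, and in PEO6 1 was higher and 7 lower, against 19.9% and 19.2%. All 10 genes had an adjusted p in these 3 pairs. The median log2 change of the tested genes was -3.16 in PEA2, -1.04 in PEO4 and -2.21 in PEO6, beside -0.03, 0.01 and 0.04 over all genes. The pairs of one family share their control libraries (OVCAR3, OVCAR4 or PEO1), so their values stand side by side and are not independent of each other. In bulk RNA, fewer cells expressing a gene and less RNA per cell cannot be told apart.

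**Figure D3:**
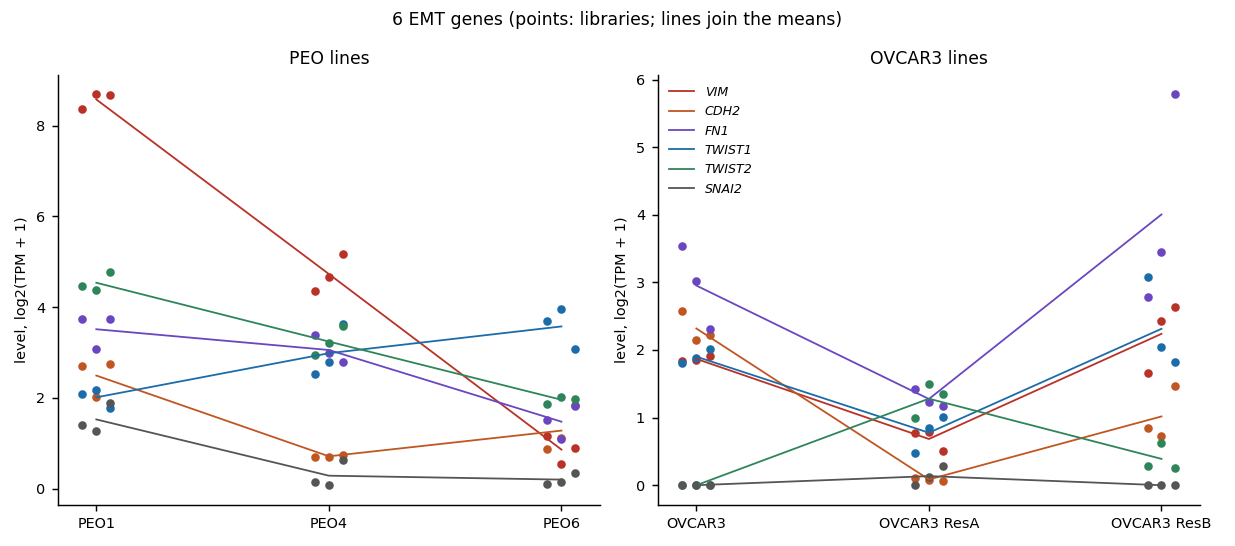
Levels of 6 EMT genes, as log2(TPM + 1), in the PEO lines and the OVCAR3 lines (points, 3 libraries per line; the joining lines connect means and imply no order in time). In the PEO lines VIM and TWIST2 are lower and TWIST1 is higher in PEO4 and PEO6 than in PEO1, and in OVCAR3 ResB replicate 3 carries the high FN1 value.

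Next, resistant lines of 1 family were set against each other, without the sensitive libraries. Of the 30 combinations 21 had an adjusted p and 11 were called, 5 higher and 6 lower. In OVCAR3 ResB against OVCAR3 ResA 4 genes were higher and none was lower, where 6.98% of all genes were higher and 5.59% lower. They were TWIST1 (log2 change 2.54 ± 0.67, adjusted p = 0.00215), VIM (2.64 ± 0.55, adjusted p = 4.75e-05), CDH2 (4.08 ± 0.79, adjusted p = 7.11e-06) and FN1 (3.41 ± 0.49, adjusted p = 2.90e-10). FN1 was still called without replicate 3 (log2 change 2.58), while TWIST1 was lost without replicate 1 or 2 (adjusted p = 0.369 and 0.122) and VIM without replicate 2 (0.107). The ranges of all 4 genes were separate between the lines.

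In OVCAR4 ResB against OVCAR4 ResA 1 gene was higher and 2 were lower, against 15.8% and 16% of all genes. VIM was lower in ResB (log2 change -1.09 ± 0.11, adjusted p = 1.83e-21) and remained so in every alternative analysis run. SNAI1 was higher (1.01 ± 0.31, adjusted p = 0.00523), at 10.7, 6.22 and 6.58 TPM against 3.78, 3.19 and 4.17 TPM, and was lost without the replicate block (adjusted p = 0.0996) and without replicate 1 (0.173) or 2 (0.133). The FN1 call (adjusted p = 0.0294) compared 1, 3 and 0 counts with 95, 3 and 3 counts, so it rested on the library that stood apart, without replicate 1 it had no adjusted p, and without replicate 3 it was lost (adjusted p = 0.137). In PEO6 against PEO4 none was higher and 4 were lower, against 9.86% and 8.33% of all genes. These were VIM (log2 change -5.07 ± 0.43, adjusted p = 8.96e-30), FN1 (-2.13 ± 0.34, adjusted p = 1.13e-08), SNAI1 (-1.75 ± 0.43, adjusted p = 7.81e-04) and TWIST2 (-1.61 ± 0.43, adjusted p = 0.00194). Without replicate 2 the SNAI1 and TWIST2 calls were lost (adjusted p = 0.171 and 0.150).

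A test with the line as the unit, on counts summed per line with family as a covariate, called none of the 10 genes between the 7 resistant and the 4 sensitive lines, where 0.377% of all genes were called. VIM had the smallest adjusted p (log2 change -2.63 ± 0.97, unadjusted p = 0.00642, adjusted p = 0.310), followed by CDH2 (-1.56 ± 0.71, unadjusted p = 0.0291, adjusted p = 0.540). These 2 genes were under 0.05 before adjustment with DESeq2, and none was with edgeR. FN1, higher in PEA2 and lower or not called elsewhere, had a log2 change of -0.56 ± 1.05 over the lines.

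Whether the 7 changes of a gene could be 1 shared change was tested with a likelihood ratio test over all 33 libraries. For 9 of the 10 genes they differed between pairs, where 66.6% of all genes did. VIM (adjusted p = 2.97e-83), CDH2 (5.73e-41) and ZEB1 (1.02e-22) had the smallest values. CDH11, at or near 0 counts in most lines, was the exception with DESeq2 (adjusted p = 0.248) and was called with edgeR (adjusted p = 0.0387).

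The PEA pair stood out when the epithelial genes that EMT factors repress, or that oppose EMT, were set beside the 10 genes. All 21 genes of that list were called higher in PEA2, with a median log2 change of 7.81, where 22% of all genes were higher. CDH1 was at 1.24, 0.290 and 2.26 TPM in PEA1 and at 228, 207 and 176 TPM in PEA2 (log2 change 7.81 ± 0.38, adjusted p = 6.73e-94). ESRP1, a splicing regulator of epithelial isoforms, was at 0.0231, 0 and 0 TPM against 120, 102 and 100 TPM, and GRHL2, a factor that opposes ZEB1, at 0, 0.00986 and 0 TPM against 10.1, 8.41 and 9.87 TPM. EPCAM, an adhesion molecule of epithelial cells, rose from a mean of 14 to 575 TPM and the keratin KRT19 from 0.459 to 626 TPM. OVOL1, a zinc-finger factor of epithelial identity, had no count in PEA1 and was at least 20.4-fold higher in PEA2. SPINT1, a protease inhibitor, rose from 0.478 to 142 TPM and the claudin CLDN3 from 0.869 to 71.6 TPM. OVOL1, SPINT1, CLDN3 and KRT19 were named by the rule for lists, and the other epithelial genes after their values were seen.

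PEA1 had the lowest mean of EPCAM, ESRP1 and CDH1 among the 11 lines. In the other 10 lines EPCAM averaged 530 to 800 TPM, ESRP1 69.5 to 177 TPM and CDH1 34.1 to 204 TPM, also in PEO1 and PEA2, where VIM exceeded 200 TPM. In the other 6 pairs the epithelial list gave 0 to 7 calls in either direction and a median between -0.43 and 0.12. Among them were 6 higher and 7 lower in OVCAR3 ResA, where 22% of all genes were higher and 22.9% lower. In OVCAR4 ResB 1 was higher and 6 were lower, with a median of -0.43, where 8.8% of all genes were higher and 8.5% lower. Of 9 fibroblast markers, 2 averaged at least 1 TPM in PEA1, COL1A1 at 88.4 and PDGFRB at 6.55 TPM, COL3A1 and DCN had no count, and the summed level of the list was 69.8 to 116 TPM in PEA1 and 0.693 to 1.17 TPM in PEA2. The sum was 164 to 220 TPM in PEO1, 93.2 to 130 TPM in PEO4 and 91.5 to 131 TPM in PEO6. In these PEO lines THY1 averaged 173, 112 and 107 TPM. PAX8 was at 73.7, 62.8 and 88.2 TPM in PEA1. Among leukocyte and endothelial markers, CD3E and MS4A1 had no count in PEA1 or PEA2, while PTPRC and CDH5, without a count in PEA1, averaged 3.3 and 7.02 TPM in PEA2. CD68 (18.7 to 49.9 TPM), CD14 (0.323 to 2.89 TPM) and PECAM1 (0.0572 to 0.287 TPM) were also called higher in PEA2. No marker of these lists was called lower there. The part of other cells in these values was not tested.

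**Figure D4:**
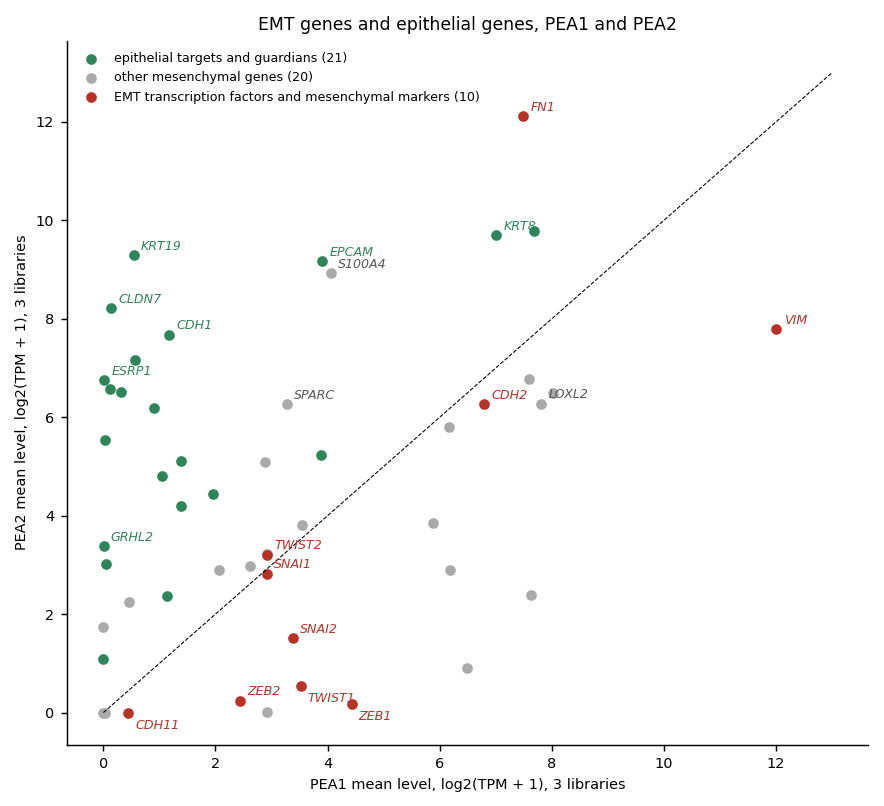
Mean level in PEA1 (x) and PEA2 (y), as log2(TPM + 1) over 3 libraries per line, of the 10 EMT genes (red), 21 epithelial genes (green) and 20 other mesenchymal genes (grey); the dashed line marks equal levels. Every epithelial gene lies above the line, ZEB1, ZEB2, SNAI2, TWIST1, VIM and CDH11 lie below it, CDH2, TWIST2 and SNAI1 lie close to it, and FN1 lies above it.

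The promoters of these epithelial genes were read for the E-box that ZEB and SNAI factors bind, CACCTG or its reverse complement CAGGTG, on both strands. RefSeq windows (GRCh38.p14) reach from 250 bases before to 50 bases after each transcription start. Windows were at hand for 11 of the 21 epithelial genes and 6 of the 10 EMT genes. At least 1 E-box was in 8 of 14 epithelial windows and in 2 of 13 windows of the EMT genes, and in 20.6% of all 35116 windows. At least 2 were in 4 epithelial windows and 3.49% of all windows, and at least 5 in 2 epithelial windows, those of CRB3 and CLDN7, and 0.0940% of all windows. ZEB2, TWIST2, VIM, CDH2 and FN1 had none in their windows, and SNAI1, SNAI2, TWIST1, CDH11 and CDH1 were without an entry. A match describes the letters only and is not a binding site.

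The windows with at least 2 E-boxes follow, on the gene's strand from 5′ to 3′, with the E-boxes in capitals. ZEB1 itself has several windows. That at the gene start given above (chr10:31318167-31318466) holds 1 E-box, a later one holds 3 and its remaining windows none. The first sequence is the ZEB1 window with 3, a count reached by 0.635% of all windows (chr10:31318966-31319265, plus strand). The others are epithelial genes that averaged at most 1.61 TPM in PEA1 and were higher in PEA2: CRB3, a polarity protein (chr19:6464021-6464320, plus strand), CLDN7, a tight-junction claudin (chr17:7262429-7262728, minus strand), RAB25, a small GTPase of epithelial trafficking (chr1:156060910-156061209, plus strand), and OCLN, occludin (chr5:69492540-69492839, plus strand).
ZEB1: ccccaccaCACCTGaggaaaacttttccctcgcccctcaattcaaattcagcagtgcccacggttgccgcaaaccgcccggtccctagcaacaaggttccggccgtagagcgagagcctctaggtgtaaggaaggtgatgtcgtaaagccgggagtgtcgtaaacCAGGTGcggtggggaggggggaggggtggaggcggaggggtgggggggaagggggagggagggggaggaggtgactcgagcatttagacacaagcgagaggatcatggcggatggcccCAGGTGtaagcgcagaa
CRB3: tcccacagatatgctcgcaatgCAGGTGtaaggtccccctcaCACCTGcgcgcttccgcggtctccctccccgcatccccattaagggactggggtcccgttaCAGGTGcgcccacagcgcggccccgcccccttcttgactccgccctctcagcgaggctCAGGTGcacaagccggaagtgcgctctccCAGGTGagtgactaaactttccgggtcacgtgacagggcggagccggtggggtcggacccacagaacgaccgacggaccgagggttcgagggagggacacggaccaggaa
CLDN7: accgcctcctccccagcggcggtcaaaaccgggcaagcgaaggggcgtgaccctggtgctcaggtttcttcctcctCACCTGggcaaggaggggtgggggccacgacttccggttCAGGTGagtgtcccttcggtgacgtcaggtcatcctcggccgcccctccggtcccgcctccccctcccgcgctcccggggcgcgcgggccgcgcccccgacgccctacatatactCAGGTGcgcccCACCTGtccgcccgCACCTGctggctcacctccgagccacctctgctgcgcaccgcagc
RAB25: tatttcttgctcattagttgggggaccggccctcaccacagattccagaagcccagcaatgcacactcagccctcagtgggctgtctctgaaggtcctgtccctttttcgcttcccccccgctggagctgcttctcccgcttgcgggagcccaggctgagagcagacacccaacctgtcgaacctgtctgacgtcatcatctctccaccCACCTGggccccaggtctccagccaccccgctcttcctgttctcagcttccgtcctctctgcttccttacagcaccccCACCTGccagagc
OCLN: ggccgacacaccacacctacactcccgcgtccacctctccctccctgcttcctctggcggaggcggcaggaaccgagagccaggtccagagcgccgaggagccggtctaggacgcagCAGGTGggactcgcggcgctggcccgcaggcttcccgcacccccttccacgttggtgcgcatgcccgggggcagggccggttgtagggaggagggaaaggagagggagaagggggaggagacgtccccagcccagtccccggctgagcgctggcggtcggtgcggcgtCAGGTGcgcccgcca

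CRB3, whose window holds 5 E-boxes, was at 1.72, 1.23 and 1.88 TPM in PEA1 and 30.5, 34.2 and 36.5 TPM in PEA2 (log2 change 4.26 ± 0.34, adjusted p = 4.26e-35). CLDN7 has 5 E-boxes in the window printed above and none in its other window. It was at 0.155, 0.0770 and 0.0547 TPM in PEA1 against 285, 272 and 332 TPM in PEA2 (log2 change 11.76 ± 0.62, adjusted p = 1.82e-78). Epithelial genes without an E-box in their windows were higher too: CLDN4 rose from a mean of 0.0875 to 93.7 TPM, and KRT8 from 128 to 832 TPM. All of these genes were called in the same direction, so the E-box count separated none of them.

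Other EMT transcription factors differed from the 10 genes in the balance of calls, but not in every pair. Over the 7 pairs this list of 14 gave 26 calls higher and 17 lower of 82 tested, beside 5 and 27 of 55 for the 10 genes. Higher calls outnumbered lower ones in every OVCAR pair and in PEA2 (5 higher, 3 lower). Lower calls outnumbered higher ones in PEO4 (3 higher, 4 lower) and PEO6 (1 higher, 4 lower). The pooled counts of this and the following lists mix pairs with unlike shares of all genes called. These shares ran from 3.84% (OVCAR3 ResB) to 22% (OVCAR3 ResA and PEA2) higher, and from 3.29% (OVCAR3 ResB) to 22.9% (OVCAR3 ResA) lower. FOXQ1, a forkhead factor, was higher in 5 pairs and lower in none, with a log2 change of 7.30 ± 0.44 in PEA2 (0.178 to 26 TPM) and 3.48 ± 0.53 in OVCAR4 ResA. TCF4, a basic helix-loop-helix factor, was lower in 4 pairs, among them OVCAR3 ResA (24.1 to 8.05 TPM, log2 change -1.71 ± 0.12). TBX3 was called in 4 pairs, higher in OVCAR4 ResB and PEA2 and lower in PEO4 and PEO6, at means of 3.51 TPM or less.

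The 20 other mesenchymal genes gave 33 calls higher and 41 lower of 121 tested. SPARC, a matrix protein, was lower in 4 pairs and higher in 2, and like FN1 it was higher in PEA2 (8.67 to 76.1 TPM). S100A4, a calcium-binding protein, was higher in 5 pairs and lower in OVCAR4 ResB, reaching 2817 TPM in OVCAR3 ResA from 405 TPM in OVCAR3, the pair in which VIM, CDH2 and FN1 fell. LOXL2, a lysyl oxidase, was lower in PEA2, PEO4 and PEO6 and higher in 3 of the OVCAR pairs. MMP2, a matrix protease, was lower in 4 pairs, among them PEA2, PEO4 and PEO6, and higher in 1. In PEO6 11 of 19 tested genes of this list were lower and 6 higher, where 19.2% of all genes were lower and 19.9% higher. The median log2 change of the list there was -1.55. In PEA2 8 of 18 tested genes were lower and 6 higher, where 22.5% of all genes were lower and 22% higher. The median of the list in PEA2 was 0.15.

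Upstream, the 12 genes of the TGF-beta pathway gave 19 calls higher and 23 lower of 83 tested. The ligand TGFB2 was lower in 4 pairs and higher in none, most in OVCAR3 ResA (19.6 to 0.176 TPM, log2 change -6.88 ± 0.25). The ligand TGFB1 was higher in 3 OVCAR pairs and lower in PEO4 and PEO6, and the target TGFBI was higher in OVCAR3 ResB and OVCAR4 ResB and lower in PEA2, PEO4 and PEO6. The receptor TGFBR2 was higher in OVCAR4 ResA, OVCAR4 ResB and PEA2 and lower in OVCAR3 ResA.

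Fibronectin receptors and matrix partners gave 21 calls higher and 17 lower of 62 tested. The integrin subunit ITGB6 was higher in all 4 OVCAR pairs, for instance 4.2 to 29.1 TPM in OVCAR4 ResA, and lower in PEO4 and PEO6. ITGB3 was higher in 4 pairs, and in PEA2, where FN1 was 28.7-fold higher, it was lower (106 to 1.69 TPM). In OVCAR4 ResA ITGB3 was at 61.1, 344 and 368 TPM, against 17.8, 6.84 and 8.34 TPM in OVCAR4. TGM2, a transglutaminase that binds fibronectin, was higher in PEA2 (227 to 774 TPM), OVCAR3 ResA and OVCAR4 ResA and lower in PEO4 and PEO6, and FBLN1, a fibulin, was lower in 4 pairs and higher in 2. Cadherin partners gave 10 calls higher and 3 lower of 40, with CTNNB1 (beta-catenin) higher in OVCAR3 ResA and PEA2 and lower in PEO4 and PEO6, ARVCF higher in 3 pairs, CTNNA2 higher in 2 and lower in 1, and CTNNA1 higher in 2.

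**Figure D5:**
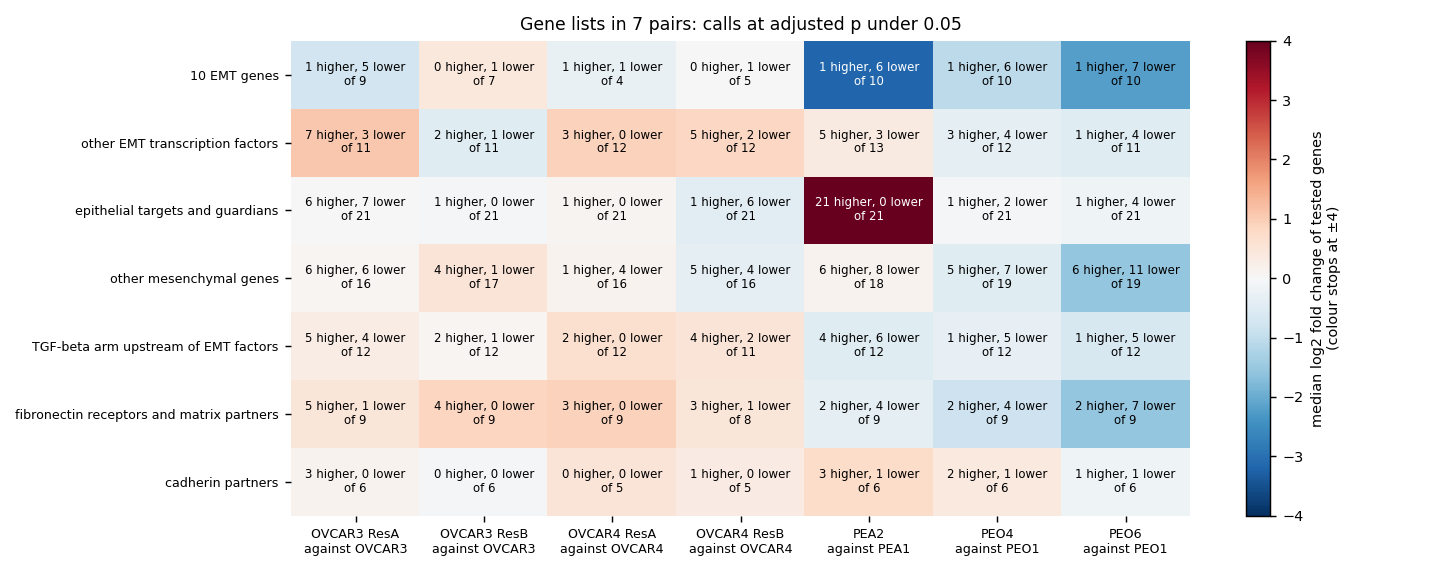
Calls and median log2 fold change (colour) of the 10 EMT genes and 6 related gene lists in the 7 pairs, each cell giving how many tested genes were called higher and lower. The epithelial list in PEA2 stands apart, with 21 of 21 genes higher, and the 10 EMT genes have their lowest medians in PEA2 and PEO6.

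Among antisense neighbours, VIM-AS1 was called in 3 of the 5 pairs in which VIM was called: it was lower in PEA2 (log2 change -2.02 ± 0.26), PEO4 (-3.04 ± 0.33) and PEO6 (-5.88 ± 0.56). It was not called in OVCAR3 ResA, where VIM fell (0.232 to 0.323 TPM, log2 change 0.78 ± 1.13), or in OVCAR4 ResA, where VIM rose (1.82 to 3.31 TPM, 0.48 ± 0.56). ZEB1-AS1 was lower in PEA2 (8.02 to 3.86 TPM) and higher in OVCAR3 ResA (0.652 to 3.12 TPM) and PEO6, lines in which ZEB1 itself had at most 6 counts per library. ZEB2-AS1 was called in no pair and averaged at most 0.0615 TPM. Strand use in the counting is not given in the sources used here. Whether reads were told apart where a gene and its antisense partner overlap is therefore not known.

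The pattern of each gene over the 11 line means was compared with 12075 genes by Pearson's r of log2(TPM + 1). The 11 lines come from 4 families and are not independent, so these values are descriptions. Among the genes most like VIM were VIM-AS1 (r = 0.98) and ACTN1 (0.95), and most like TWIST2 were FBN1 (0.98), CAV1 (0.96) and GATA3 (0.96). FN1 was nearest to IRAK2 (0.98), IKBKE (0.95) and G0S2 (0.94), and genes near SNAI2 included RUNX2 (0.96) and FRMD4A (0.95). TWIST1 was nearest to SEMA5A (0.96), EXTL2 (0.96) and ZNF667 (0.94), CDH2 to DHX35 (0.97), HNMT (0.94) and LONP1 (0.94), and SNAI1 to CTSA (0.92), EIF4A1 (0.90) and TMEM97 (0.86).

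Among the 10 genes themselves, the 7 with at least 1 TPM in at least 2 lines were compared. SNAI2 and VIM had r = 0.79 over 11 lines and 0.62 without PEA1, VIM and CDH2 had 0.79 and 0.72, and SNAI2 and TWIST2 had 0.66 and 0.85. TWIST1 and TWIST2 had r = 0.48, and TWIST1 and CDH2 had r = -0.38 with and -0.74 without PEA1. The opposition of VIM to EPCAM and ESRP1 rested on PEA1: VIM with EPCAM had r = -0.62 over 11 lines and 0.08 over the other 10, and VIM with ESRP1 -0.57 and 0.25. VIM with GRHL2 had r = -0.70 and -0.40.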

How the data were processed

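Gene tables were deposited as estimated counts and TPM, which the authors obtained with salmon and merged into 1 value per gene and library. Per the labels and the study's methods, DRAGEN was used to make the read files. The strand setting is not given in the sources used here. The estimated counts were rounded and tested with DESeq2 1.42.0 (R 4.3.3), with replicate number and line as terms and the 6 libraries of each comparison, as in the study's design. No filter on low counts was applied here. P-values were adjusted over all genes (threshold 0.05). DESeq2 gives no adjusted p to genes with few counts, and these were left out of the counts of tested genes. The line-level test used counts summed per line. Alternatives were TMM size factors, edgeR 4.0.16, limma 3.58.1 on log2(TPM + 1) and log2(TPM + 0.1), a filter of 10 counts in 3 libraries, no block, 1 fit of all 33 libraries, and each replicate number left out. The model fits were tested on simulated data.

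The 10 genes and all lists were chosen with earlier results of these data known. From each list up to 4 genes are named, those called in most pairs, and for likeness the 3 genes with the highest r among genes with at least 5 TPM in at least 2 lines. Some genes that these rules name are not reported here. Replicate numbers come from the titles, and no source says that they mark a shared day or batch. Deviations from the line means correlated above 0.1 for all 3 numbers in 2 of 10 comparisons, OVCAR3 ResA against OVCAR3 (0.677, 0.248 and 0.466) and OVCAR4 ResB against OVCAR4 ResA (0.719, 0.529 and 0.569). They were negative for all 3 numbers in OVCAR4 ResA against OVCAR4 (-0.448, -0.344 and -0.0909) and OVCAR4 ResB against OVCAR4 (-0.471, -0.359 and -0.0281). PEO6 against PEO4 was negative throughout too (-0.255, -0.141 and -0.400). Without the replicate block 30 of the 70 combinations were called, against 32 with it. Over all genes, calls without the block rose from 1745 to 3462 in OVCAR4 ResA and from 2830 to 4725 in OVCAR4 ResB. They fell from 8146 to 5427 in OVCAR3 ResA. No 2 libraries agreed within sampling noise (chi-square per degree of freedom at least 32.6 between replicates).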

Additional observations from a re-analysis of the deposited data

Results flagged for a closer look

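For 9 of the 10 genes the changes differed between the 7 pairs by a likelihood ratio test of the difference itself (DESeq2, 33 libraries). The same test called 66.6% of all genes. The adjusted p was 1.02e-22 for ZEB1 and 7.56e-07 for ZEB2, which fell in PEA2 and were near 0 in all other families. It was 8.69e-05 for SNAI1 and 1.42e-05 for SNAI2. For TWIST1, called higher in PEO4 and PEO6 and lower in OVCAR3 ResA and PEA2, it was 1.26e-16, and for TWIST2, called higher in OVCAR3 ResA and lower in PEO4 and PEO6, it was 3.39e-14. It was 2.97e-83 for VIM, 5.73e-41 for CDH2 and 1.1e-16 for FN1, which was called higher in PEA2 and lower in 5 pairs. The test says that the changes differ and not which pairs differ from which.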

How the results depend on the processing

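The count of calls over the 7 pairs was 32 and ranged from 23 to 32 over the alternatives, from 26 to 31 with 1 replicate number left out, and was 30 without the replicate block. Of these calls 18 were kept in all 11 alternatives and 25 without each replicate. Between resistant lines the count was 11, also without the block, but 7 with limma on log2(TPM + 0.1), 2 with limma without a filter and 6 to 12 with 1 replicate number left out, and 2 of the 11 calls were kept in all alternatives. The cause was not tested. The test over lines called none of the 10 genes under any alternative, and the test of differences called 8 to 10. With DESeq2 in the settings used above, these tests called 0.377% and 66.6% of all genes. No value that was called changed direction. Depth limits ZEB1 and ZEB2 outside the PEA lines (at most 13 counts per library) and TWIST1, TWIST2 and SNAI2 in the OVCAR4 lines (at most 12).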
